A study of Homo sapiens with 6 samples.

Results

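The liver makes most of the proteins of blood plasma, and hepatocellular carcinoma cells keep part of that output. The 10 genes described here encode liver plasma proteins, apolipoproteins and the factor that loads lipid onto APOB: ALB, AFP, SERPINA1, TF, TTR, APOB, MTTP, APOE, APOA1 and APOH. They were found by symbol, were chosen by their known role together with earlier results of this same apigenin and DMSO comparison, and are 10 of 23059 genes in the deposited tables. Because the comparison had a part in choosing them, their differences are a description. Whether a member passed the threshold of the fit over all genes is stated only to describe it and is no evidence of a difference.

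The samples were HCC-LM3 cells, an established human hepatocellular carcinoma line, given either the plant flavone apigenin or DMSO as the control. There were 3 apigenin and 3 DMSO libraries of total RNA, which the labels number as biological replicates 1 to 3. Dose and duration were not among the labels, nor whether cultures were raised separately, so the p-values measure the spread between these libraries, which may be technical. The series asks how apigenin changes transcription, and its title concerns microvesicles and tumour angiogenesis. Libraries held 33882145 to 37983636 counts, so that a gene with 0 reads could still stand at up to 0.079 to 0.0885 CPM (3 counts, counting error only). Levels are given as CPM, which scales each library to the same total, here after TMM adjustment, and every log2 fold change is apigenin over DMSO with its standard error.

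Albumin carries fatty acids, hormones and drugs and supplies most of the colloid osmotic pressure of plasma. Alpha-fetoprotein is its fetal relative, which liver tumours often make again. Alpha-1 antitrypsin restrains neutrophil elastase, transferrin carries iron, and transthyretin carries thyroxine and the retinol-binding protein. APOB is the scaffold of very low density lipoprotein, which MTTP fills with lipid in the endoplasmic reticulum, whereas APOA1 shapes high density lipoprotein and APOE brings particles to their receptors. In liver, promoters of such genes are bound by HNF1, HNF4, FOXA and C/EBP factors.

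Promoter windows of 300 bases from RefSeq (GRCh38.p14), 250 before to 50 after an annotated start, were found for 7 of the 10 genes, in 12 windows. TTR, APOB and APOA1 were not matched. Of these windows 4 are shown, because ALB and SERPINA1 had the largest differences with narrow spread while AFP, the next gene after ALB, and APOH did not separate the groups. Capitals mark matches, on either strand, to several motifs: the HNF1 core GTTAAT, HNF4 CAAAGTCC, C/EBP TTGCNNAA, FOXA TGTTTAC, the NF-Y box CCAAT, the TATA box core TATAAA and the xenobiotic response core GCGTG. In order, they lie at chr4:73404037-73404336, chr4:73435971-73436270, chr14:94388553-94388852 and chr17:66229366-66229665, on the plus strand for the first pair and the minus strand for the second pair.
ALB: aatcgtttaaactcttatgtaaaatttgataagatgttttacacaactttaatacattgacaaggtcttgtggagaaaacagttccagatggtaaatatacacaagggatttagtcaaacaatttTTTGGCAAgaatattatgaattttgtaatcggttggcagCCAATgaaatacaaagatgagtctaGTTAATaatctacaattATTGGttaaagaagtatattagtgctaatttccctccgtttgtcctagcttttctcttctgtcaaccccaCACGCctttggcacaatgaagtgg
AFP: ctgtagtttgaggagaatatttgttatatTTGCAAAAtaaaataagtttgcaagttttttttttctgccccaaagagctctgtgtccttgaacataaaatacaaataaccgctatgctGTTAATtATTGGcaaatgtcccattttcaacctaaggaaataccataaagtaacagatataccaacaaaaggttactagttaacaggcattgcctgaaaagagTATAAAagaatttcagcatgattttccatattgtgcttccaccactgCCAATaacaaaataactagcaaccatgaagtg
SERPINA1: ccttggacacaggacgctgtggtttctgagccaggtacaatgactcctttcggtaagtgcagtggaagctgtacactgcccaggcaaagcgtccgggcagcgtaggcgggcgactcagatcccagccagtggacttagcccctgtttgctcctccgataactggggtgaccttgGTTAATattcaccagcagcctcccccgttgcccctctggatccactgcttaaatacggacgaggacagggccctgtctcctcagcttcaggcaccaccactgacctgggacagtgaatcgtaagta
APOH: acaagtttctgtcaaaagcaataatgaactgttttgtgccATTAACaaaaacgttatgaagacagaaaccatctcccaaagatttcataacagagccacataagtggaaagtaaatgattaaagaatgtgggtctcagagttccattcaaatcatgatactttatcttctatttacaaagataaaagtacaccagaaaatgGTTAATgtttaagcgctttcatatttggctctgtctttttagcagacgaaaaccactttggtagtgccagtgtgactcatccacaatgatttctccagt

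The 4 windows shown are also those of the 12 that held the HNF1 core. It was thus in 4 of 12 windows, from 4 of 7 genes, and in 6.88% of the 35116 RefSeq windows. The other SERPINA1 window and the windows of TF, MTTP and APOE did not hold it. It began at position -61 from the start in ALB, -132 in AFP, -76 in SERPINA1 and -49 in APOH, with a further match on the opposite strand of APOH at -210. Among genes with a window that were lower with apigenin, ALB and SERPINA1 held the core and TF and MTTP did not. Among those whose groups overlapped, AFP and APOH held it and APOE did not. The C/EBP letters were found in ALB, AFP and TF, in 3 of the 12 windows, and in 10.5% of all windows. In TF they overlap a CCAAT match. The xenobiotic response core was found in a window of ALB, SERPINA1 and MTTP, in 3 of the 12 windows, and in 36.5% of all windows. The CCAAT box was found in ALB, AFP, TF, MTTP and APOE (6 of the 12 windows, and 34.6% of all windows). TATAAA was found in AFP and MTTP (2 of the 12 windows, and 11.5% of all windows). None of the 12 windows held the HNF4 letters (420 of all windows) or the FOXA letters (3.42%). These matches describe letters in the windows and are not binding sites.

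ALB (chromosome 4, 73404287 to 73421482) had 51.5, 53.3 and 53.9 CPM in the apigenin libraries, against 125, 125 and 119 CPM in the DMSO libraries. All 3 apigenin libraries lay close together and well below the DMSO libraries. Its mean was 52.9 ± 1.23 CPM with apigenin and 123 ± 3.30 CPM with DMSO (SD, n = 3 each), which is 2.33-fold lower with apigenin (log2 fold change -1.22 ± 0.060). In bulk RNA, fewer cells that express a gene and less RNA per cell cannot be told apart.

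AFP (chromosome 4, 73436221 to 73456174) begins 14738 bases after the end of ALB and belongs to the same gene family. It had 6.48, 5.40 and 8.06 CPM with apigenin, against 7.32, 7.51 and 8.16 CPM with DMSO. The groups overlapped, and the highest apigenin library reached the DMSO range. Its log2 fold change was -0.21 ± 0.16. Per length, AFP stood at 11.9, 9.53 and 14.1% of the ALB level with apigenin, against 5.50, 5.68 and 6.45% with DMSO. Of the other genes of the locus, AFM, which encodes the vitamin E carrier afamin, had 0.642 ± 0.198 CPM with apigenin and 1.26 ± 0.401 CPM with DMSO (SD, n = 3 each) and did not pass the test (edgeR quasi-likelihood, adjusted p = 0.193). GC, the vitamin D carrier gene, had only 6 reads over the apigenin and 1 over the DMSO libraries. RASSF6, further along, stood at -0.24 ± 0.088 (adjusted p = 0.11).

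SERPINA1 (chromosome 14, 94376747 to 94390635) had 18.9, 19.1 and 21.7 CPM with apigenin, against 42.3, 37.9 and 41.6 CPM with DMSO. The groups were far apart, as for ALB. Its mean was 19.9 ± 1.57 CPM with apigenin and 40.6 ± 2.38 CPM with DMSO (SD, n = 3 each), a log2 fold change of -1.03 ± 0.086. Other genes of the serpin cluster on chromosome 14 did not pass the test. SERPINA3, which encodes alpha-1 antichymotrypsin, stood at 0.42 ± 0.33 (adjusted p = 0.478), SERPINA6, the cortisol carrier gene, at 0.11 ± 0.15 (adjusted p = 0.724) SERPINA10 at -0.42 ± 0.23 (adjusted p = 0.276) and SERPINA5, a protein C inhibitor gene, at -0.06 ± 0.53 (adjusted p = 0.967). SERPINA4, the kallistatin gene, had 2 reads over the apigenin and 19 over the DMSO libraries.

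TF (chromosome 3, 133661998 to 133796641) took the most reads of the 10 genes. It had 291, 269 and 307 CPM with apigenin, against 347, 344 and 330 CPM with DMSO. The groups did not overlap, but the gap between the nearest libraries was small. Its log2 fold change of -0.24 ± 0.059 was the smallest of the 5 members past the threshold. The annotated extent of TF overlaps SRPRB, which lies on the same strand, and other genes. Reads in the shared stretch of TF and SRPRB may thus not be told apart, whatever the strand use, which is not stated. SRPRB had 146 ± 9.50 CPM with apigenin and 125 ± 2.23 CPM with DMSO (SD, n = 3 each), higher where TF was lower. TTR (chromosome 18, 31591877 to 31598821), which overlaps an uncharacterised locus, had 49, 40 and 71 reads with apigenin, against 112, 76 and 127 with DMSO. As CPM these were 1.44, 1.04 and 2.11 with apigenin, against 3.01, 2.03 and 3.67 with DMSO. The lowest DMSO library lay just under the highest apigenin library, and the log2 fold change was -0.92 ± 0.31.

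**Figure D1:**
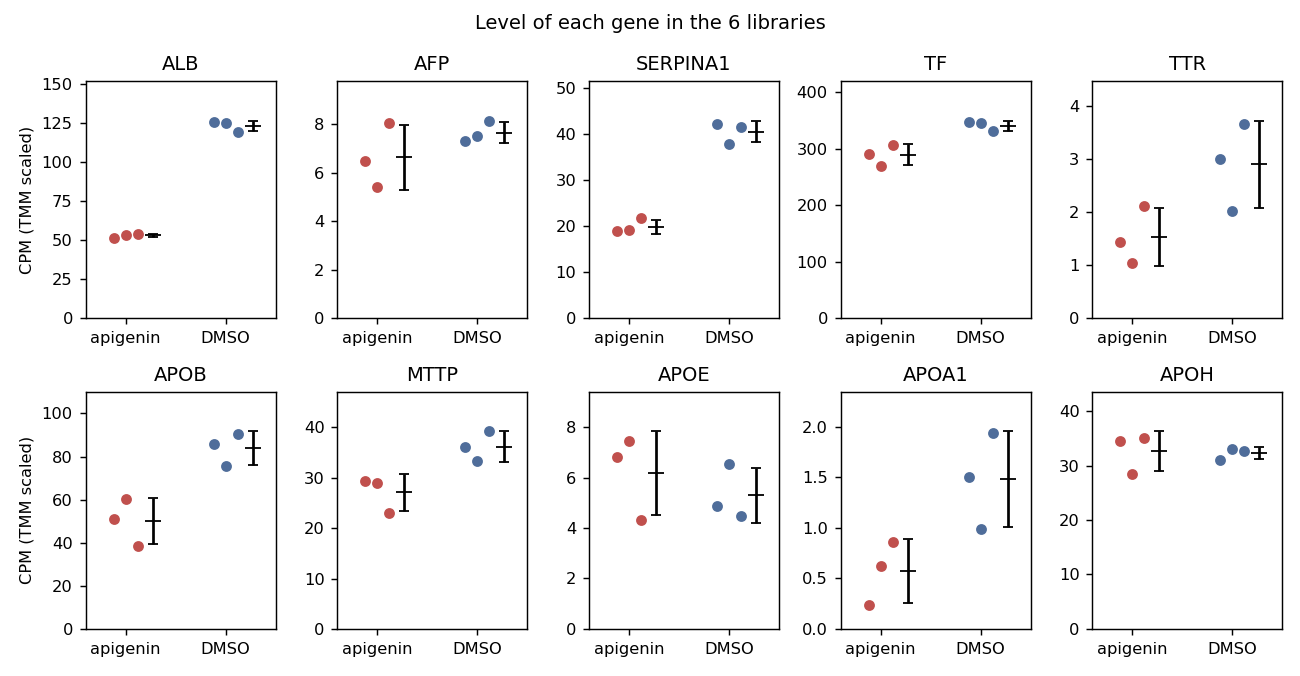
Levels of the 10 genes in CPM (TMM scaled) in 3 apigenin (red) and 3 DMSO (blue) libraries, 1 panel a gene on its own axis from 0, with the mean and SD in black. ALB stands at 51.5 to 53.9 CPM with apigenin and 119 to 125 CPM with DMSO, while AFP, TTR, APOE and APOH overlap between the groups.

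APOB (chromosome 2, 21001429 to 21044073) had 50.9, 60.1 and 38.7 CPM with apigenin, against 85.9, 75.5 and 90.6 CPM with DMSO. The groups did not overlap, with the third apigenin library lowest. Its mean was 49.9 ± 10.7 CPM with apigenin and 84.0 ± 7.74 CPM with DMSO (SD, n = 3 each), a log2 fold change of -0.75 ± 0.12. MTTP (chromosome 4, 99564130 to 99623997) had 29.4, 29.01 and 22.9 CPM with apigenin, against 36.1, 33.2 and 39.2 CPM with DMSO. Again no library overlapped and the third apigenin library was lowest. The log2 fold change was -0.42 ± 0.10.

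APOA1 (chromosome 11, 116835751 to 116837622), which overlaps its antisense gene APOA1-AS, was the rarest of the 10, with 8, 24 and 29 reads with apigenin, against 56, 37 and 67 with DMSO. As CPM these were 0.236, 0.626 and 0.863 with apigenin, against 1.51, 0.989 and 1.94 with DMSO. Each apigenin library was below each DMSO library, but the reads were few and spread widely within each group. The log2 fold change was -1.35 ± 0.48. Of the neighbours, APOA4 stood at -0.08 ± 0.30 (adjusted p = 0.91), and APOC3, which slows the clearance of particles, had 2 reads over the apigenin and 6 over the DMSO libraries. APOA5 had 0 and 1 in that order. Further out, ZPR1 stood at 0.10 ± 0.068, SIK3 at -0.17 ± 0.11 and BUD13 at 0.14 ± 0.094, with adjusted p of 0.409, 0.378 and 0.392 in that order.

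APOE (chromosome 19, 44905796 to 44909393) had 6.81, 7.44 and 4.31 CPM with apigenin, against 4.87, 6.52 and 4.48 CPM with DMSO. The groups overlapped, and the lowest library was an apigenin one (log2 fold change 0.23 ± 0.21). Its neighbour APOC1, a small apolipoprotein gene, stood at -0.13 ± 0.14 (adjusted p = 0.604), and TOMM40, a mitochondrial import gene upstream of APOE, rose by 0.25 ± 0.067 (adjusted p = 0.0421). TOMM40 lost that call when apigenin 1 or any DMSO library was left out (adjusted p of up to 0.18). On either side of the locus, NECTIN2 stood at 0.04 ± 0.062 (adjusted p = 0.784) and CLPTM1 at 0.00 ± 0.057 (adjusted p = 0.973). APOH (chromosome 17, 66212033 to 66229415) encodes beta-2 glycoprotein I, which binds phospholipid. It had 34.4, 28.5 and 35.1 CPM with apigenin, against 31.0, 33.0 and 32.7 CPM with DMSO. The DMSO libraries lay within the apigenin range, and the log2 fold change was 0.02 ± 0.088, which changed sign under some settings (-0.13 with the length trend removed).

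Of the 10 members, 5 were lower past an adjusted p of 0.05 over all 15173 tested genes (ALB, SERPINA1, TF, APOB and MTTP) and 0 higher, where 4.22% of all tested genes were called lower and 2.76% higher. In 6 members every apigenin library was below every DMSO library, as it was in 15.0% of tested genes. The median log2 fold change was -0.58 over the members and 0.00 over all tested genes. Nothing is read from these counts, since the members were chosen with the comparison known. Together the members took 0.0492, 0.0478 and 0.0489% of counts in the apigenin libraries, against 0.0684, 0.0668 and 0.0670% in the DMSO libraries. TF supplied more of these reads than any other member in each library.

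The log2 fold changes of these libraries followed gene length, so each was also computed with each library's trend on length removed. Each library was taken as its deviation from the mean of the DMSO libraries, so the DMSO slopes cancel out by construction. The slope per doubling of length was -0.0707, -0.0211 and -0.1471 in apigenin 1, 2 and 3, against 0.0015, -0.0047 and 0.0032 in DMSO 1, 2 and 3. APOB, of 14121 nucleotides, had its apigenin levels in the same order as these slopes. With the trend removed APOB stood at -0.58, ALB at -1.29 and SERPINA1 at -1.05, all 3 on the same side of the threshold as before. TF, for which the deposited tables imply 21225 nucleotides, went to 0.0014 and was no longer called. Its coding length is 2094 nucleotides, and with the trend taken on coding length TF stood at -0.20, APOB at -0.41 and MTTP at -0.34, all called. The difference in TF thus depends on which length is assigned to it. Leaving out apigenin 1 or any 1 of the DMSO libraries also took the call from TF (-0.26 to -0.22) and from MTTP (-0.48 to -0.36), and TTR and APOA1 passed without apigenin 3 (-1.225 and -1.75). Without apigenin 1 or any 1 of the DMSO libraries, calls were fewer over the whole table. There 103 to 140 genes were called higher and 157 to 184 lower, against 419 and 641 with all libraries. Calls lost in these fits are thus not particular to the genes named.

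**Figure D2:**
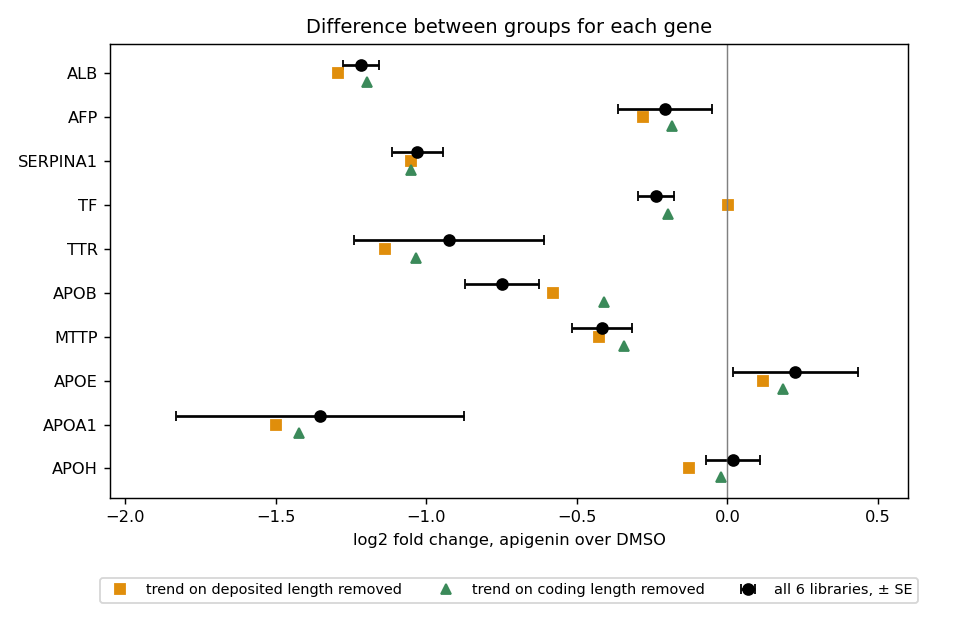
Log2 fold change of each gene, apigenin over DMSO, with all 6 libraries (black, ± SE) and with the trend on deposited gene length (orange squares) or on coding length (green triangles) removed. ALB and SERPINA1 hold their place near -1.2 and -1.0, and TF moves from -0.24 to 0.0014 with the first removal only.

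Between genes, levels were compared per length, as deposited FPKM. With apigenin the order was APOH (27.8 ± 2.86 FPKM), ALB (23.1 ± 0.508), TF (13.6 ± 0.754), MTTP (6.71 ± 0.952), SERPINA1 (5.44 ± 0.375), APOE (4.39 ± 1.21), APOB (3.54 ± 0.796), AFP (2.74 ± 0.522), TTR (2.48 ± 0.848) and APOA1 (0.44 ± 0.240; SD, n = 3 each). From MTTP to TTR the ranges of neighbours overlapped, so neighbours among these 6 genes were not ordered beyond their spread. Genes further apart could be: MTTP (5.61 to 7.27 FPKM) lay wholly above APOE (3.02 to 5.32 FPKM). With DMSO the order was ALB (53.9 ± 1.57 FPKM), APOH (27.5 ± 0.961), TF (16.1 ± 0.458), SERPINA1 (11.1 ± 0.628), MTTP (8.96 ± 0.716), APOB (5.95 ± 0.532), TTR (4.72 ± 1.33), APOE (3.75 ± 0.780), AFP (3.16 ± 0.175) and APOA1 (1.13 ± 0.361). Here the neighbours from APOB to AFP overlapped and the others did not. ALB thus stood first with DMSO and second, after APOH, with apigenin. Its mean ranked 2653 with apigenin and 1046 with DMSO among the 23059 genes.

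The place of TF rests on its length. Per kilobase of coding length in GENCODE 29, a setting chosen after seeing the data, TF stood first in both groups, at 138 ± 7.64 with apigenin and 163 ± 4.64 with DMSO (CPM without TMM scaling, per coding kilobase). ALB then stood at 28.9 ± 0.636 with apigenin and 67.4 ± 1.96 with DMSO on that scale, level with APOH in the apigenin libraries, whose ranges overlapped. Of 20 places over both groups, 9 were as with deposited FPKM.

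**Figure D3:**
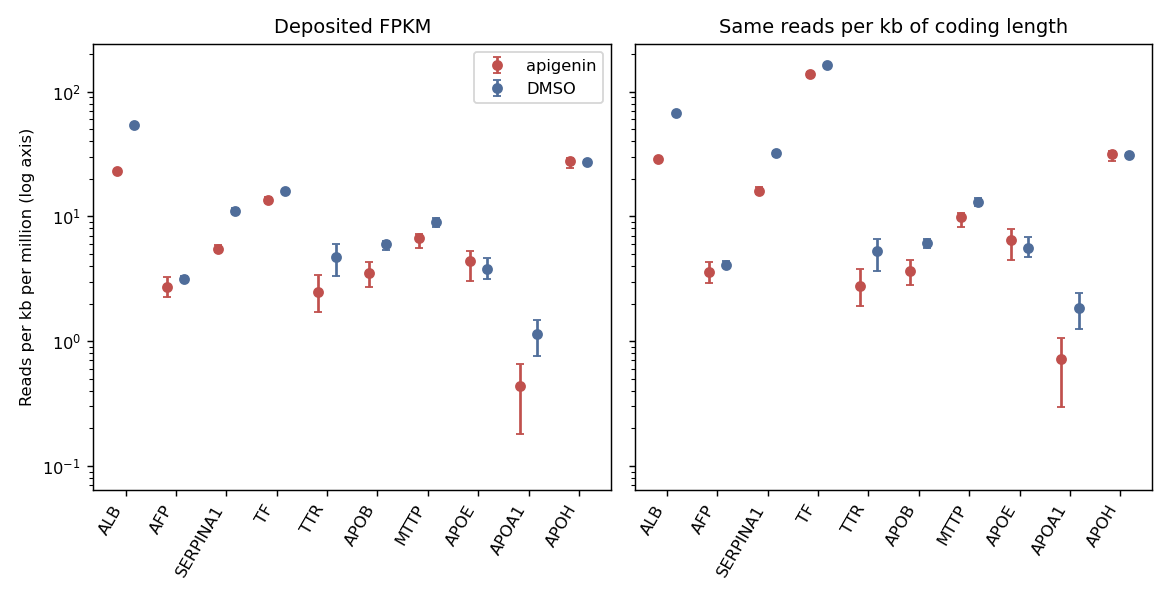
Mean level of each gene in apigenin (red) and DMSO (blue) libraries on a log axis, with bars from the lowest to the highest of 3 libraries, as deposited FPKM (left) and with the coding length in place of the deposited length (right). ALB is at 23.1 FPKM with apigenin and 53.9 FPKM with DMSO, and TF stands first in both groups only on the right.

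The output of the line beyond these genes was partial. Of 80 other plasma protein genes, 47 had enough reads to test, 24 were below the filter on low counts and 9 were not found by symbol in the gene tables. C3, the central complement gene, had 4 reads over the apigenin and 8 over the DMSO libraries, and SAA1, an acute phase gene, had 0 and 1. Of the hepatocyte markers that are not members, the keratin genes KRT8 (2386 ± 171 CPM with apigenin, 2550 ± 37.9 with DMSO) and KRT18 (849 ± 72.2 and 854 ± 5.99), which overlap each other, and the regulator HNF4A (71.1 ± 3.54 and 76.0 ± 3.45) were present, while TAT, a tyrosine breakdown gene, rose by 0.73 ± 0.17 (adjusted p = 0.021; up to 0.143 when apigenin 1 or any DMSO library was left out or with limma unfiltered). FABP1 and G6PC1 each had 0 reads over the apigenin and 1 over the DMSO libraries. Summed, the 14 markers in the tables stood at 3161 to 3656 CPM with apigenin and 3515 to 3606 CPM with DMSO. Most of this sum was KRT8 and KRT18, so it says little about the other markers. Of 12 leukocyte, endothelial and fibroblast markers, PTPRC had 13 reads over the apigenin and 14 over the DMSO libraries and CD3E 1 and 0. CD68 (89.9 and 89.1 CPM), PECAM1 (44.3 and 51.0 CPM) and LUM (28.98 and 23.05 CPM) were present. LUM was called higher (0.33 ± 0.083, adjusted p = 0.0313), a call lost without apigenin 1 or any 1 of the DMSO libraries and with limma unfiltered (adjusted p of up to 0.146). This list summed to 160 to 172 CPM with apigenin and 162 to 167 CPM with DMSO.

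Other plasma protein genes were called in both directions. Of the 47 tested, 6 fell (12.8%, beside 4.22% of all tested genes), 2 rose (4.26%, beside 2.76%) and 39 did not pass, with a median log2 fold change of -0.22. Called lower were 3 in each filtered limma fit, 2 in limma unfiltered and 3 to 7 with 1 library left out. This list and those below were chosen with earlier results of these data known, so nothing is read from their counts. The coagulation factor V gene F5 (chromosome 1, 169511951 to 169586481) had 82.3, 85.5 and 70.9 CPM with apigenin, against 148, 139 and 141 CPM with DMSO. The groups were well apart, and it fell by 0.84 ± 0.072 on the log2 scale (adjusted p = 1.02e-05, edgeR quasi-likelihood with Benjamini-Hochberg adjustment). ITIH2 (chromosome 10, 7703316 to 7749520), which encodes a heavy chain of the inter-alpha-trypsin inhibitor that binds hyaluronan, had 311, 322 and 327 CPM with apigenin, against 490, 480 and 492 CPM with DMSO. It fell by 0.61 ± 0.051 (adjusted p = 8.54e-06) with a narrow spread in both groups. F5 and ITIH2 passed under each of 16 other settings, and with the length trend removed they stood at -0.72 and -0.64.

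CP, which encodes the copper ferroxidase ceruloplasmin and overlaps HPS3, fell to 540 ± 21.2 CPM with apigenin, against 690 ± 32.9 CPM with DMSO (-0.36 ± 0.055, adjusted p = 0.00195). It missed the threshold in limma unfiltered only (adjusted p = 0.0629). The complement gene C5 fell by 0.49 ± 0.11 (adjusted p = 0.0187), and PROS1, the gene of the anticoagulant protein S, fell by 0.65 ± 0.18 (adjusted p = 0.0433). C5 and PROS1 each lost their call without apigenin 1, without any 1 of the DMSO libraries and in the limma fits. PROS1 also lost it without apigenin 3 and in edgeR with the replicate block (adjusted p = 0.0515). The highest adjusted p in any setting was 0.152 for C5 and 0.179 for PROS1.

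Both that rose were at low levels. MBL2, which encodes the mannose-binding lectin of the complement system, had 3.42, 3.47 and 3.36 CPM with apigenin, against 1.48, 1.44 and 1.71 CPM with DMSO. It rose by 1.15 ± 0.23 (adjusted p = 0.0092), and missed the threshold without DMSO 1 (adjusted p = 0.052). SHBG, the sex steroid carrier gene, named after its values were seen, had 1.12, 0.600 and 1.10 CPM with apigenin, against 0.161, 0.187 and 0.260 CPM with DMSO (2.19 ± 0.54, adjusted p = 0.0278), and overlaps FXR2 and SAT2. SHBG lost its call without apigenin 1, apigenin 3 or any 1 of the DMSO libraries and with limma unfiltered (adjusted p of up to 0.142).

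**Figure D4:**
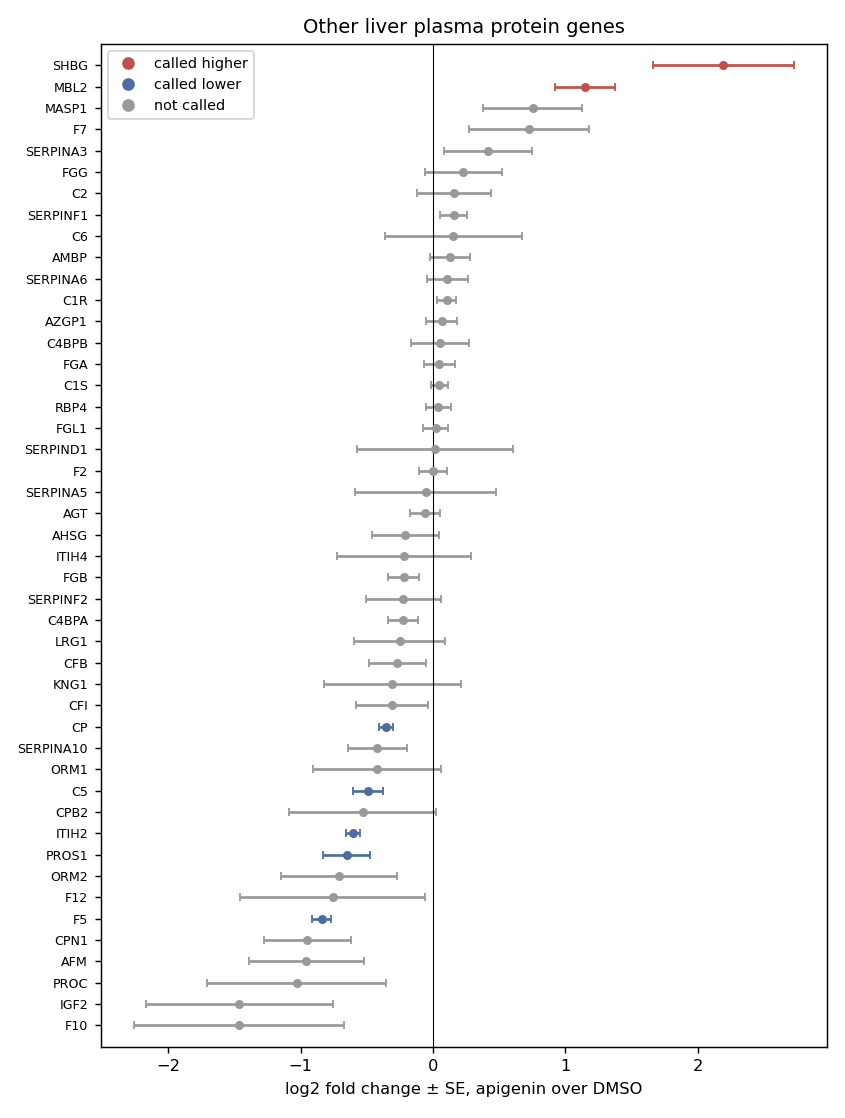
Log2 fold change with its SE, apigenin over DMSO, of the tested plasma protein genes that are not members, sorted by size, with 1 gene that was called lower not drawn. The 5 drawn as called lower run between F5 (-0.84) and CP (-0.36), the 2 called higher are SHBG (2.19) and MBL2 (1.15), and the 39 not called are grey.

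Other apolipoprotein genes mostly did not pass. Of 22, 12 were tested, 1 rose (8.33%, beside 2.76% of all tested genes) and 0 fell (beside 4.22%). The gene that rose was APOL2 (0.29 ± 0.062, adjusted p = 0.0133), a gene of intracellular apolipoprotein L, with 98.0, 96.6 and 104 CPM with apigenin, against 81.0, 84.4 and 78.7 CPM with DMSO. It lost its call without apigenin 1 or any 1 of the DMSO libraries (adjusted p of up to 0.107). The chaperone gene CLU, also known as apolipoprotein J, stood at -0.20 ± 0.059 (adjusted p = 0.0561). The median over the 12 was -0.10.

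Of 19 tested genes of lipoprotein assembly and remodelling, 2 fell (10.5%, beside 4.22% of all tested genes) and 1 rose (5.26%, beside 2.76%). The other 16 did not pass, and the median was 0.01. LPIN1, a phosphatidate phosphatase gene, fell by 0.49 ± 0.11 (adjusted p = 0.0195), and ABCA1, which loads cholesterol onto APOA1, rose by 0.35 ± 0.089 (adjusted p = 0.0313). Both calls were lost without apigenin 1 or any 1 of the DMSO libraries, with a highest adjusted p in any setting of 0.183 for LPIN1 and 0.247 for ABCA1. P4HB, which encodes the partner subunit of MTTP, stood at 0.07 ± 0.049 (adjusted p = 0.452).

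Of 14 tested receptors for these proteins and particles, 2 fell (14.3%, beside 4.22% of all tested genes) and 12 did not pass (median -0.13). LRP1, a receptor of many ligands, fell by 0.41 ± 0.084 (adjusted p = 0.0103). Of 14923 nucleotides, it lost its call without DMSO 1, 2 or 3 and with the trend on coding length removed (adjusted p = 0.426). The transferrin receptor gene TFRC stood at -0.13 ± 0.056 (adjusted p = 0.158) and FCGRT, which recycles albumin, at 0.03 ± 0.091 (adjusted p = 0.901).

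Genes for folding and export of secreted proteins were mostly not called. Of 25 tested, HSPA5, the main chaperone of the endoplasmic reticulum, rose by 0.24 ± 0.053 (adjusted p = 0.0168), SEL1L, of the disposal machinery, fell by 0.27 ± 0.072 (adjusted p = 0.0378) and 23 did not pass, with a median of 0.03. Each direction thus held 4% of the 25, beside 2.76% higher and 4.22% lower among all tested genes. HSPA5 and SEL1L lost their calls without apigenin 1 or any 1 of the DMSO libraries, with a highest adjusted p in any setting of 0.112 for HSPA5 and 0.22 for SEL1L.

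Of 24 tested liver transcription factors, 4 fell (16.7%, beside 4.22% of all tested genes), 2 rose (8.33%, beside 2.76%) and 18 did not pass (median -0.14). FOXA1, a pioneer factor of liver genes, fell to 57.9 ± 1.04 CPM with apigenin, against 78.9 ± 3.36 CPM with DMSO (-0.45 ± 0.063, adjusted p = 0.00108), and passed under each of 16 other settings. CEBPA, an activator of ALB, rose by 0.39 ± 0.074 (adjusted p = 0.00703) and lost its call without DMSO 1 or DMSO 3 (highest adjusted p in any setting 0.109). PROX1 fell by 0.59 ± 0.12, ONECUT2 fell by 0.52 ± 0.14, NR2F2 fell by 0.26 ± 0.063 and DBP rose by 0.65 ± 0.18. PROX1, ONECUT2, NR2F2 and DBP lost their calls without apigenin 1 or any 1 of the DMSO libraries, and DBP also without apigenin 3, with highest adjusted p in any setting of 0.156, 0.288, 0.128 and 0.185 in that order. HNF4A stood at -0.10 ± 0.066 (adjusted p = 0.406).

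Over the 6 libraries, the log2 profile closest to that of ALB among the 10704 genes averaging at least 5 CPM was that of SOX9, a transcription factor gene of biliary and progenitor cells, at a root mean square difference of 0.055 log2 units (Pearson r of 0.996). CLDN2, a tight junction gene (0.083), and FOSB, an AP-1 gene (0.096), came next. For SERPINA1 the closest were CLDN2 (0.095), the nucleoside transporter gene SLC28A2 (0.103) and SOX9 (0.133). The 6 points share 2 groups, so any gene with a difference of the same size has a high correlation. SOX9 had 32.1, 32.9 and 31.2 CPM with apigenin, against 72.0, 73.6 and 75.9 CPM with DMSO. CLDN2 overlaps RIPPLY1, and SLC28A2 overlaps SLC28A2-AS1. Of 4 tested biliary and progenitor markers, SOX9 among them, 2 fell (50%, beside 4.22% of all tested genes) and 0 rose (beside 2.76%). KRT19 fell by 0.32 ± 0.071 (adjusted p = 0.0172). That call was lost without apigenin 1 or any 1 of the DMSO libraries and with limma unfiltered (adjusted p of up to 0.129). SPP1 stood at -0.01 ± 0.055 (adjusted p = 0.949). In 1 further marker, not called and not reported here by name, every apigenin library was above every DMSO library, as in 2182 of 15173 tested genes.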

How the data were processed

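Total RNA of HCC-LM3 cells gave 6 libraries, put into groups by title. The tools named per the submitters' processing notes are HTSeq, HISAT2 and fastp, with GRCh38, without versions or strand use. The authors deposited raw read counts per gene symbol and FPKM values for each library, with 23059 genes. The deposited FPKM equal count over library total and a fixed gene length for 100% of values (relative tolerance 0.0001), from which lengths were taken.

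Counts were compared with edgeR 4.0.16 (quasi-likelihood, R 4.3.3) with TMM factors and the default filter (15173 genes), without covariates, and Benjamini-Hochberg adjustment at 0.05. The standard error is the size of the log2 fold change over the root of F. The alternatives were DESeq2 1.42.0, limma 3.58.1 on log2(FPKM + 1) or log2(FPKM + 0.1), other filters and scaling, a replicate block, length trends removed (lowess, span 0.3) and each library left out. The trend on coding length (12689 genes with one in GENCODE 29) was added after seeing the data. The fit was tested on simulated data. Positions and overlaps came from RefSeq (GRCh38.p14), with 21723 symbols matched.

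The members and the lists were chosen with earlier results of these data known. Named were all members, of each list up to 6 called genes of 1 CPM or more by size of change, all called liver transcription factors, measured neighbours of members, and for ALB and SERPINA1 the 3 genes closest in profile (log2 of CPM + 0.5, each centred). Some listed genes count in the totals but are not reported here by name. Other genes were named for their role, or after their values were seen. Levels and intervals rest on counting and on 3 libraries per group.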

Additional observations from a re-analysis of the deposited data

How the results depend on the processing

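The members' values are given as a description. ALB ran from -1.29 to -1.18 and SERPINA1 from -1.096 to -0.91 over the 16 other settings, each called, and AFP, APOE and APOH were called under none. Genes called higher numbered 419 in the fit reported and 727 with DESeq2, 865 with no filter, 78 with limma on log2(FPKM + 1) without a filter, 685 and 690 with the trend on deposited or coding length removed, and 103 to 1344 with 1 library left out. Genes called lower numbered 641, and 973 with DESeq2, 1096 with no filter, 303 with limma at a pseudocount of 1, 289 at 0.1 and 60 unfiltered, and 157 to 1546 with 1 library left out. Of the 10 members, 5 were called lower in the fit reported, 3 in each filtered limma fit, 2 in limma unfiltered, and 3 to 7 with 1 library left out. In the limma fits (filtered with 1, filtered with 0.1, unfiltered) TF stood at -0.22, -0.24 and -0.22 and MTTP at -0.37, -0.42 and -0.37, none of them called, and APOB at -0.63 unfiltered, not called. TF went to 0.0014 with the trend on deposited length removed. With 1 library left out TF ran from -0.28 to -0.19, MTTP from -0.48 to -0.31, TTR from -1.225 to -0.71 and APOA1 from -1.75 to -0.99. TTR passed with DESeq2 (-0.93), with no filter (-0.92), and with the trend on deposited (-1.14) or coding length (-1.03) removed, the coding length having been added after seeing the data. APOA1 passed with no filter (-1.35) and with the trend on deposited length removed (-1.50). The cause of these changes was not tested. Same-numbered libraries did not deviate together (correlations of -0.002, -0.042 and -0.048), so the numbers were not taken as pairs. With the replicate block 6 members were called lower, TTR among them (-0.94), and 455 genes were higher and 776 lower over all. Over the 27 other called genes of the lists, 304 values under other settings kept their side of the threshold and 124 did not, none with a change of direction. DESeq2 gave no adjusted p for APOA1 and SHBG, which also have no value under the 1 CPM filter. APOA1 and TTR had 8 to 127 reads a library, and depth as a cause was not tested.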
